A study of Mus musculus with 6 samples.

Results

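The genes described here are 42 genes of glucose metabolism and of the hypoxia response, in the pancreas of wild-type (wt) mouse embryos at 13.5 and 15.5 days post coitum (dpc). They were taken by name as a fixed list, out of the 37224 genes of the count table, and all 42 were found there and passed the filter on low counts. The list holds 4 glucose and lactate transporters, 9 genes of upper glycolysis, 6 of lower glycolysis, 2 of lactate dehydrogenase, 3 of pyruvate dehydrogenase, 6 of the tricarboxylic acid (TCA) cycle, 5 of anaplerosis and the cytosolic dehydrogenases, 3 of the pentose phosphate pathway and 4 of the hypoxia response. Both stages had 3 independent samples of C57/Bl6J wt embryos, with no transgene, mutation or treatment in either, and each sample pooled the pancreata of up to 3 embryos. Poly(A) RNA was sequenced by RNA Seq from whole pancreata, so that epithelium, mesenchyme, vessels and blood are in every sample, and a larger share of one cell type and more RNA per cell cannot be told apart.

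Glycolysis breaks glucose down to pyruvate in the cytosol. Pyruvate is then reduced to lactate by lactate dehydrogenase, enters the mitochondrial TCA cycle through pyruvate dehydrogenase, or is carboxylated to oxaloacetate by pyruvate carboxylase, which refills the cycle. When oxygen is plentiful, prolyl hydroxylases of the Egln family mark the transcription factor subunit Hif1a for destruction, and when oxygen falls Hif1a persists and activates many glycolytic genes, the pyruvate dehydrogenase kinases and *Egln3* itself. In the pancreas, pyruvate carboxylase is known for its high activity in beta cells, which keep *Ldha* low when mature.

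The core motif that Hif1a dimers bind, ACGTG, was looked for on both strands in the RefSeq promoter windows of 300 bases, 250 before and 50 after each annotated start (assembly GRCm38.p6). The palindrome CACGTG, which other factors also bind, contains the core on both strands and was counted with it. At least 1 window held the core in 23 of the 40 members with a window, 57.5%, against 28.5% of 10981 protein-coding genes tested. A gene with more windows had more chances of a match, and the number of windows was not matched between the members and the other genes. Among the members that rose the share was 58.8% of 17 genes and among those that did not pass the test 57.1% of 21 genes. The other form of the core, GCGTG, was in 65.0% of the members and 54.9% of the protein-coding genes, and either form in 90.0% and 66.3%. *Slc2a3* and *Idh3a* had no window. The sequences below are the 250 bases before the start of members to which the results return: the strongest rises, *Egln3* and *Pcx*, the gene *Bnip3* of the hypoxia response, and the lactate dehydrogenase pair, whose members went opposite ways. They are written 5′ to 3′ on the strand of the gene, with ACGTG, as read on either strand, in capitals. The *Egln3* sequence (chr12:54203875-54204124, minus strand) held the core 1 time. The *Bnip3* sequence (chr7:138909507-138909756, minus strand) and the first *Pcx* window (chr19:4510222-4510471, plus strand) each held the palindrome, the latter with a further core match. The first *Ldha* window (chr7:46845554-46845803, plus strand) held 5 matches in 3 stretches, 2 of them palindromes, and the *Ldhb* sequence (chr6:142507958-142508207, minus strand) held none, although the *Ldhb* window has 1 match to GCGTG and that of *Ldha* 2. The second windows of *Ldha* (from chr7 position 46846832) and *Pcx* (from chr19 position 4594069) held no ACGTG. A match is a description of these letters, and says nothing of binding in the embryonic pancreas.
Egln3: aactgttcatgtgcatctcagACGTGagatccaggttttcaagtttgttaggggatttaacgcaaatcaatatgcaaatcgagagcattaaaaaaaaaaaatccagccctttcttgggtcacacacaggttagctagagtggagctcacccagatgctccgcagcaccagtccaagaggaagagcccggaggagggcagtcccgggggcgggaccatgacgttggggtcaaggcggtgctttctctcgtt
Bnip3: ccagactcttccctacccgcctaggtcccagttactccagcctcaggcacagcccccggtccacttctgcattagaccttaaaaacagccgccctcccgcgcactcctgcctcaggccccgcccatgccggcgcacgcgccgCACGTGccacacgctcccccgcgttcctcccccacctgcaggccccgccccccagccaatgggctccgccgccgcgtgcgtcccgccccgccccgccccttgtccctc
Pcx: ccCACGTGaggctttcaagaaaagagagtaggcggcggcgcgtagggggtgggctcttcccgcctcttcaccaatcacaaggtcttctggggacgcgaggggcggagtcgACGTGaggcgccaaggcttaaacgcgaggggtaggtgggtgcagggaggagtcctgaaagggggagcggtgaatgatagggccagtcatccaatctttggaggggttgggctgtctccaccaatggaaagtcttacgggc
Ldha: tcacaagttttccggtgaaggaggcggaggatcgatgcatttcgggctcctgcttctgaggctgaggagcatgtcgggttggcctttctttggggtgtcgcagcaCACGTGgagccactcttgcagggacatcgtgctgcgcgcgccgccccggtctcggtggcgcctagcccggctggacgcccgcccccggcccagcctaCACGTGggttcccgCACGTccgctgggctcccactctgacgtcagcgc
Ldhb: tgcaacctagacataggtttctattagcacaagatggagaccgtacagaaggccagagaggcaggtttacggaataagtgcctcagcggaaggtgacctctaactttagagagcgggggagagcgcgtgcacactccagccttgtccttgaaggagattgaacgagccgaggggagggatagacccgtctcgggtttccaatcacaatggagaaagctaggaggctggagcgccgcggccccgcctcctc

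Total counts ranged from 10546028 to 16389237 per sample, and the members held 0.664% to 0.668% of the counts at 13.5 dpc and 0.706% to 0.784% at 15.5 dpc. The 15.5 dpc samples stood apart from each other in a trend with gene length. Across the 15578 genes tested, Spearman's rho of the difference between 15.5 dpc replicates 1 and 2 with exon length was -0.588, and that of the stage difference was -0.355. These genes share the libraries and are not independent replicates. The summed level of 10 acinar markers, as CPM (counts scaled to library size), was 7720 to 9274 at 13.5 dpc and 104500, 49120 and 68040 in 15.5 dpc replicates 1, 2 and 3, with all 10 markers higher at the adjusted threshold. Replicate 1 was thus the highest of the 15.5 dpc samples in acinar markers and replicate 2 the lowest. Summed erythroid markers were 935 to 1155 at 13.5 dpc and 92.1 to 122 at 15.5 dpc, epithelial markers 1874 to 1974 and 2486 to 3139, and mesenchymal markers 9718 to 11000 and 7230 to 10730. Endocrine markers were 2383 to 2565 and 2454 to 3959, and endothelial markers 561 to 600 and 602 to 641. Neural and glial markers were 159 to 168 and 121 to 130, duct and trunk progenitor markers 1625 to 1678 and 1429 to 1566, proliferation markers 1488 to 1524 and 1563 to 1776, and immune markers 175 to 179 and 150.0 to 191. No gene of these lists was at 0. A sum is weighted to the abundant genes of its list and can hide opposite changes. At the adjusted threshold 1 of 8 erythroid markers rose and 5 fell, and the list includes the globins *Hbb-y*, *Hba-x* and *Hbb-bh1*. Of 12 endocrine markers 5 rose and 2 fell, and of 8 duct and trunk progenitor markers 2 rose and 3 fell. Of all genes 11.6% rose and 10.7% fell.

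The first question was how many of the metabolic genes differed between the stages, around the onset and during the main wave of acinar and endocrine differentiation. With edgeR's quasi-likelihood test and Benjamini-Hochberg adjustment over all genes tested, 21 of the 42 members were at an adjusted p of 0.05 or less, against 22.3% of all genes. Of these, 18 were higher at 15.5 dpc, where 11.6% of all genes were, and 3 were lower, where 10.7% of all genes were. The median log2 fold change of 15.5 over 13.5 dpc was 0.37 for the members and -0.01 for all genes, and 32 members had a positive value. Separated stages, with every 15.5 dpc sample above or below every 13.5 dpc sample, were found for 27 members on the higher side, against 22.8% of all genes, and for 4 on the lower side, against 23.6%. By the thresholds of the study's methods (adjusted p of 0.1 or less, a mean of over 100 normalised counts at one of the stages, and a fold under 0.6 or over 1.6), 9 members were regulated, against 10.4% of the protein-coding genes tested. These were *Egln3*, *Pcx*, *Bnip3*, *Aldoc*, *Pgk1*, *Ldha*, *Pdk1* and *Pfkp*, all higher, and *Slc2a3*, lower.

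**Figure D1:**
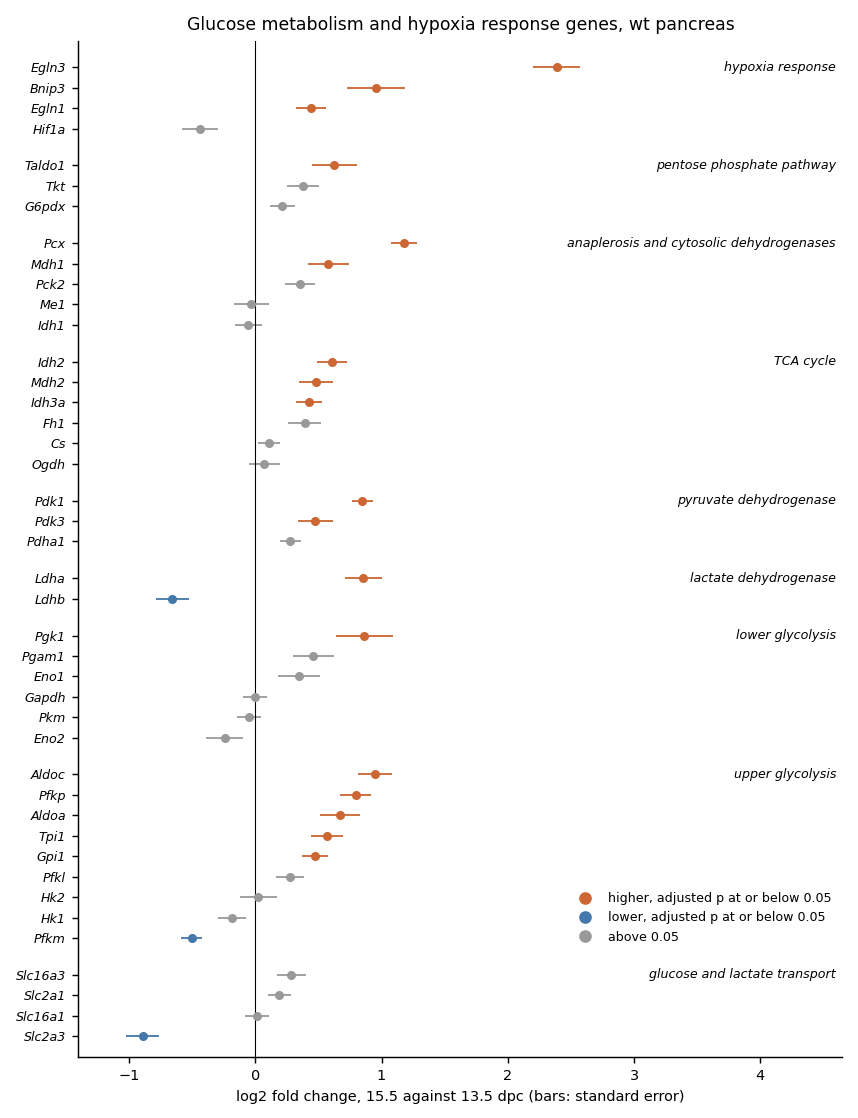
Log2 fold change of 15.5 over 13.5 dpc for each of the 42 members, by class, with bars of 1 standard error from edgeR's quasi-likelihood fit (n = 3 samples per stage). Coloured points were at an adjusted p of 0.05 or less, 18 higher and 3 lower, and *Egln3* lies farthest to the right at 2.39.

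The calls depended on which samples were in the fit. *Egln3*, *Pcx*, *Pdk1*, *Ldha*, *Aldoc* and *Pfkp* were higher and *Slc2a3* lower in every fit that left out 1 sample. Without 13.5 dpc replicate 1, 2 or 3 in turn, 8 members were called, while 7.83%, 8.45% and 8.88% of all genes were. Without 15.5 dpc replicate 3, 7 members and 9.05% of all genes were called, and without 15.5 dpc replicate 1, 23 members and 26.9%. Without 15.5 dpc replicate 2 there were 31 calls among the members, 27 of them higher, and 48% of all genes were called. The number of calls thus moved in all genes and not in the members alone. Of the 18 members that rose, 15 had their highest 15.5 dpc value in replicate 1 and their lowest in replicate 2 (83.3%), a pattern seen in 35.8% of all genes and 59.5% of the members. That is also the order of the summed acinar markers and of the length trend, whose part in the rises was not tested apart from the fit that follows.

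When a smooth trend with exon length was removed from each library before the fit, 24 members were higher, against 18.1% of all genes, and 4 lower, against 14.7%. All 21 members called before remained called in the same direction, and the median stayed at 0.37. The 7 members gained were *Slc16a3*, *Pfkl*, *Pdha1*, *Fh1*, *Pck2* and *Tkt*, all higher, and *Hif1a*, lower. Median exon length was 2625 bases for the members that rose, 3774 for those not called and 3471 for all genes. Long genes moved up under this fit, as *Pdk1* did from 0.85 to 1.09 and *Pfkp* from 0.79 to 1.07, and the short *Ldhb* moved down from -0.66 to -0.85. Normalisation by library size alone shifted the median of all genes to -0.22 and left 11 members higher and 5 lower, with 26.2% of all genes called. Class medians then were 0.255 in upper glycolysis, 0.25 in pyruvate dehydrogenase, 0.19 in the TCA cycle, 0.13 in anaplerosis and the cytosolic dehydrogenases, 0.15 in the pentose phosphate pathway and 0.47 in the hypoxia response, all above the shift of all genes.

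**Figure D2:**
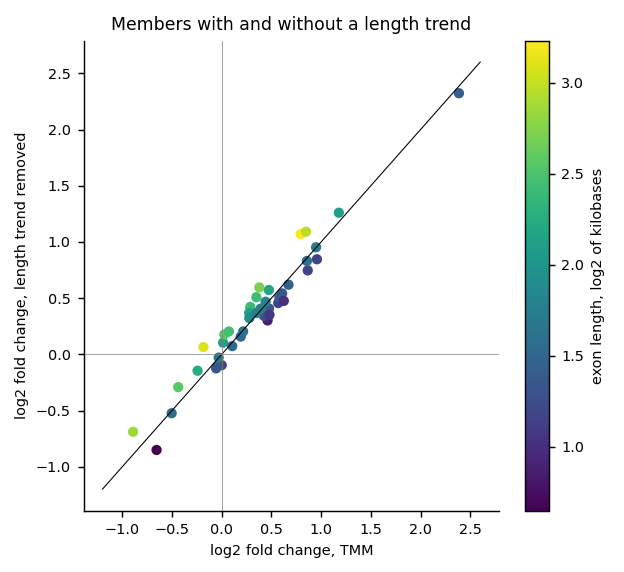
Log2 fold change of 15.5 over 13.5 dpc for the 42 members with TMM normalisation (horizontal) and after removal of a trend with exon length from each library (vertical), with a line of equality. Colour gives exon length as log2 of kilobases, and the longest genes lie above the line.

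Hypoxia response genes gave the strongest rise of the list. *Egln3*, encoding the prolyl hydroxylase PHD3, lies at chr12:54178981-54203860 (mm10). Its normalised counts, scaled to a common library size, were 82.9, 85.7 and 96.3 in 13.5 dpc replicates 1, 2 and 3 and 548, 357 and 487 at 15.5 dpc. Every 15.5 dpc sample was more than 3 times the highest 13.5 dpc sample, and the fold was 5.23 (log2 2.39, SE 0.18, adjusted p = 0.000565, edgeR). Per exon length its level went from 2.62 to 13.8 RPKM (counts per kilobase of exon, scaled to library size). *Egln1*, encoding PHD2, the main oxygen sensor of the family, had 1243, 1134 and 1165 counts in the earlier samples and 1841, 1410 and 1560 in the later ones. Its stages did not overlap, and it rose by 0.44 on the log2 scale (SE 0.12, adjusted p = 0.0352). *Bnip3*, a mitochondrial protein that promotes mitophagy and a known Hif1a target, was 176, 153 and 136 and then 397, 212 and 297, again without overlap but with widely spread 15.5 dpc samples (log2 0.96, SE 0.23, adjusted p = 0.0257). For *Bnip3*, 47.2% of 50-base transcript windows also occur in another gene, and its counts are therefore uncertain. The calls of *Bnip3* and *Egln1* were lost without 13.5 dpc replicate 1, 2 or 3 or 15.5 dpc replicate 3 (adjusted p = 0.0712 to 0.109 and 0.104 to 0.141), and that of *Egln1* also with library size alone (log2 0.22, adjusted p = 0.117).

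*Hif1a* itself, the oxygen-regulated subunit, was not among the genes that passed the test. The 13.5 dpc samples had 1692, 1681 and 1582 counts and the 15.5 dpc samples 992, 1462 and 1200, with every later sample below every earlier one (log2 -0.44, SE 0.14, adjusted p = 0.0651, edgeR). It passed when 15.5 dpc replicate 1 (adjusted p = 0.0485) or replicate 2 (0.00358) was left out, with DESeq2 (0.0415) and with library size alone (0.0428), and 0.0298 was its adjusted p with the length trend removed (log2 -0.29). An opposite-strand gene overlaps 5.6% of its exon bases, and its counts are uncertain to that extent. Hif1a is regulated largely through protein stability, which RNA counts do not measure.

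**Figure D3:**
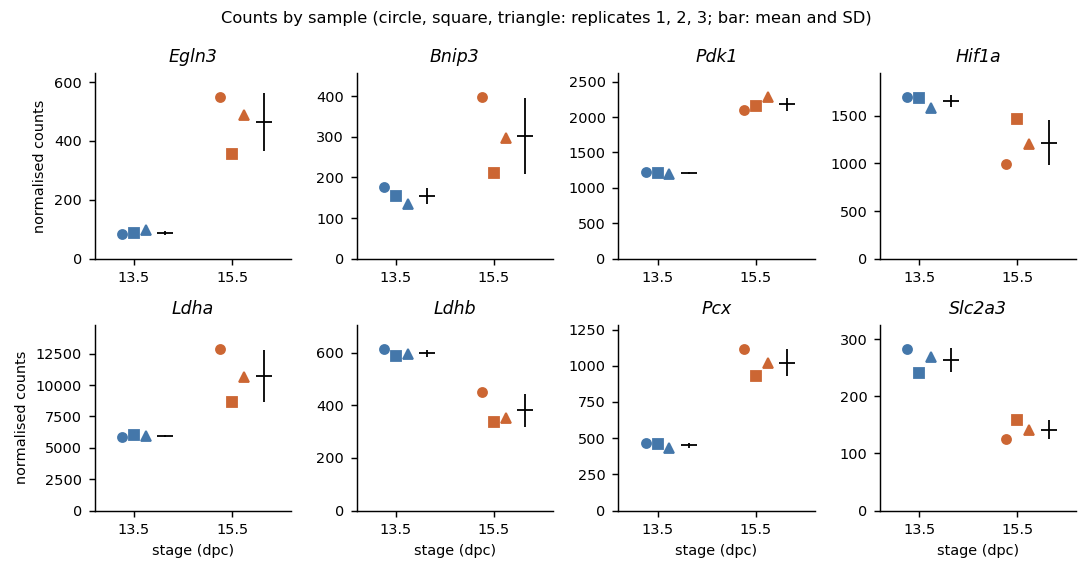
Normalised counts in every sample for 8 members, with stage in dpc on the horizontal axis, circles, squares and triangles for replicates 1, 2 and 3, and the mean and SD of each stage beside them. The stages are apart in all 8 genes, and *Hif1a*, *Ldhb* and *Slc2a3* have the lower counts at 15.5 dpc.

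Of 25 further hypoxia response genes, all tested, 10 rose and 0 fell at the adjusted threshold of edgeR's test, where 11.6% of all genes rose and 10.7% fell, with a median log2 fold change of 0.17 against -0.01 in all genes. Separated stages were found for 12 of the 25 on the higher side, against 22.8% of all genes, and for 4 on the lower side, against 23.6%. The latter include *Bnip3l* (log2 -0.32) and *Hif1an* (-0.28). These 25 genes too were listed with earlier results of these data known. *Car9*, a membrane carbonic anhydrase and a classical hypoxia marker, was 561, 604 and 699 at 13.5 dpc and 3184, 2145 and 2827 at 15.5 dpc (log2 2.13, SE 0.17, adjusted p = 0.000614). *Ndrg1*, a stress and differentiation response gene, was 1068, 1211 and 1199 and then 4391, 3087 and 3762 (log2 1.69, SE 0.14, adjusted p = 0.000722). *Stc2*, a secreted glycoprotein of the stanniocalcin family, was 197, 222 and 218 and then 631, 494 and 550 (log2 1.39, SE 0.12, adjusted p = 0.000835). In all 3 of these genes the later samples lay well above the earlier ones, with replicate 1 highest and replicate 2 lowest. *Hif3a*, a Hif family member, and *Ddit4*, an inhibitor of mTORC1 signalling, also rose, by 0.94 and 1.11 on the log2 scale. Both were singled out after their values were seen. *Hif3a* had its highest 15.5 dpc count in replicate 2 (1877, 2577 and 2240 in replicates 1, 2 and 3), unlike *Car9*, *Ndrg1* and *Stc2*. *Vegfa*, the angiogenic factor and a well-known Hif1a target, had a log2 fold change of 0.05 (SE 0.09, adjusted p = 0.729), and was also singled out after its value was seen.

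**Figure D4:**
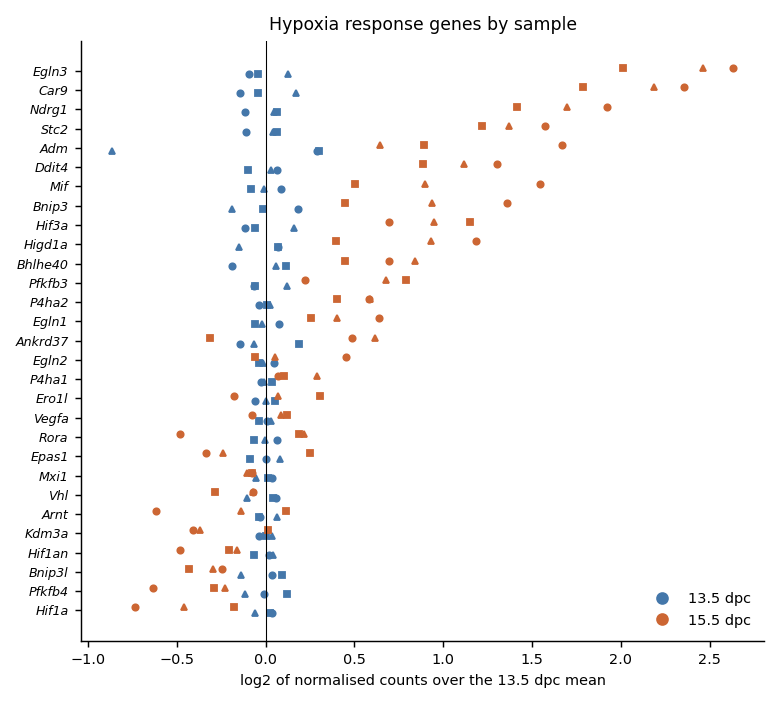
Normalised counts of the hypoxia response genes in every sample, as log2 over the mean of the 13.5 dpc samples, with circles, squares and triangles for replicates 1, 2 and 3. *Egln3*, *Car9*, *Ndrg1* and *Stc2* are the genes with all 15.5 dpc samples above 1 on this scale, and *Hif1a* lies at the bottom with all 3 below 0.

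Among the 4 glucose and lactate transporters, 1 gene passed the test, near the 22.3% of all genes. *Slc2a3*, encoding the high-affinity glucose transporter GLUT3, fell from 282, 241 and 269 normalised counts to 126, 158 and 141 (log2 -0.89, SE 0.13, adjusted p = 0.0044, edgeR). Its 15.5 dpc samples all lay far below the earlier ones. *Slc2a1*, encoding GLUT1, the widespread basal transporter, was 1129, 1032 and 1120 and then 1262, 1164 and 1321 (log2 0.19, SE 0.09, adjusted p = 0.17). Its stages did not overlap, and without 15.5 dpc replicate 2 its adjusted p was 0.0482. The lactate exporters *Slc16a1* (MCT1) and *Slc16a3* (MCT4) had log2 fold changes of 0.01 (SE 0.10, adjusted p = 0.926) and 0.29 (SE 0.11, adjusted p = 0.108). With library size alone as the scaling, *Slc2a1* was at -0.023 and *Slc16a1* at -0.20, both still above the shift of all genes.

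Upper glycolysis, the steps that phosphorylate and split the hexose, had 5 members that rose and 1 that fell, against 11.6% and 10.7% of all genes, with a median of 0.47. Summed per length, the 9 genes were at 461 to 471 RPKM at 13.5 dpc and at 778, 560 and 670 RPKM in 15.5 dpc replicates 1, 2 and 3. *Aldoc*, the brain-type aldolase isoform, was 200, 240 and 198 at 13.5 dpc and 435, 356 and 442 at 15.5 dpc (log2 0.95, SE 0.14, adjusted p = 0.00386, edgeR). *Aldoa*, the general aldolase and far more abundant at 144 to 229 RPKM, was 5049, 4885 and 5079 and then 9913, 6325 and 7676 (log2 0.67, SE 0.16, adjusted p = 0.0249). The samples of each stage were close together at 13.5 dpc and spread widely at 15.5 dpc, where replicate 1 was highest. The isomerases followed, with *Tpi1* at 0.57 (SE 0.13, adjusted p = 0.0215) and *Gpi1* at 0.47 (SE 0.10, adjusted p = 0.0173). The phosphofructokinases, which catalyse the committed step, differed from each other. *Pfkp*, the platelet form, was 110, 101 and 112 and then 173, 195 and 193 (log2 0.79, SE 0.12, adjusted p = 0.00482), a rise in a weakly expressed gene of 0.907 to 1.57 RPKM. *Pfkm*, the muscle form, fell from 794, 816 and 828 to 560, 593 and 565 (log2 -0.50, SE 0.08, adjusted p = 0.00698), with no overlap of stages. *Pfkl*, the liver form and the most abundant of these, was 2543, 2520 and 2628 and then 3506, 2731 and 3078 (log2 0.28, SE 0.11, adjusted p = 0.109). The hexokinases *Hk1* (log2 -0.18, adjusted p = 0.246) and *Hk2* (0.03, adjusted p = 0.912) did not pass the test, and their stages overlapped. The calls of *Aldoa*, *Tpi1* and *Gpi1* were lost without any 1 of the 13.5 dpc samples or without 15.5 dpc replicate 3, at adjusted p values of 0.0807 to 0.103, 0.0909 to 0.0936 and 0.0745 to 0.091. *Pfkm* was just outside the threshold (0.0507) without 15.5 dpc replicate 3, and with library size alone *Gpi1* did not pass (log2 0.255, adjusted p = 0.0571) and *Hk2* was at -0.17.

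Lower glycolysis, the steps from the triose phosphates to pyruvate, had 1 of 6 members that rose and 0 that fell, near the 11.6% and 10.7% of all genes, and a median of 0.17. *Pgk1*, encoding phosphoglycerate kinase, was 227, 248 and 223 normalised counts at 13.5 dpc and 551, 283 and 442 at 15.5 dpc (log2 0.86, SE 0.23, adjusted p = 0.0339, edgeR). Its later samples ranged more widely than the stage means were apart, and 53.9% of its windows occur in other genes. The call was lost without 13.5 dpc replicate 1, 2 or 3 or 15.5 dpc replicate 3 (adjusted p = 0.0979 to 0.123). *Pkm*, encoding pyruvate kinase and per exon length the highest member by stage mean, at 325 RPKM at 13.5 dpc and 314 at 15.5 dpc, was 10847, 10451 and 10770 and then 11139, 9400 and 10457 (log2 -0.05, SE 0.10, adjusted p = 0.729). Its stages overlapped. In 15.5 dpc replicate 1 *Ldha* was slightly higher, at 341 RPKM against 339 for *Pkm*. *Gapdh*, a common reference gene, had only 96.6, 87.5 and 91.2 counts in the earlier samples and 94.1, 78.7 and 103 in the later ones, with 25.1% of its windows shared with 223 other genes. Only uniquely aligned reads were counted, and shared sequence can lower a count. *Gapdh* was at 3.22 RPKM at 13.5 dpc, and *Eno1*, with 26.0% of its windows shared, at 36.9 RPKM. The cause of the low *Gapdh* counts was not tested, and the *Gapdh* level is not taken as comparable with that of other members. *Pgam1* (log2 0.46, SE 0.16, adjusted p = 0.0753) and *Eno1* (0.35, SE 0.17, adjusted p = 0.167) had positive values that did not pass, and without 15.5 dpc replicate 2 their adjusted p was 0.0129 and 0.00953. For these, 36.2% and 26.0% of windows are shared. *Eno2*, the neuronal enolase, was at -0.24 (SE 0.15, adjusted p = 0.251). With library size alone the median of this class was -0.048, and *Pkm* passed as lower (log2 -0.27, adjusted p = 0.0396, edgeR). The median of all genes was then -0.22.

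The lactate dehydrogenase subunits went opposite ways. *Ldha*, encoding the subunit that favours lactate formation, lies at chr7:46841475-46855627 and was 5832, 5987 and 5976 normalised counts at 13.5 dpc and 12862, 8681 and 10688 at 15.5 dpc (log2 0.86, SE 0.15, adjusted p = 0.00728, edgeR). *Ldhb*, encoding the heart-type subunit, was 612, 587 and 593 and then 451, 337 and 351 (log2 -0.66, SE 0.13, adjusted p = 0.0127). In both genes the earlier samples lay within a narrow band and no later sample reached it. The *Ldha* level per length went from 157 to 285 RPKM and that of *Ldhb* from 30.1 to 19.1 RPKM. *Ldhb* shares 21.0% of its windows with other genes, and its call was lost without 13.5 dpc replicate 1, 2 or 3 or 15.5 dpc replicate 3 (adjusted p = 0.0564 to 0.0684). Their promoter sequences are printed above.

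At the pyruvate dehydrogenase gate, both kinases of the list rose. *Pdk1*, which inactivates the complex by phosphorylation and is a known Hif1a target, lies at chr2:71873224-71903858. It was 1222, 1206 and 1203 normalised counts at 13.5 dpc and 2105, 2153 and 2278 at 15.5 dpc, with little spread within either stage (log2 0.85, SE 0.08, adjusted p = 0.000998, edgeR). Replicate 3 was its highest 15.5 dpc sample and replicate 1 its lowest, unlike the order of the acinar markers. *Pdk1* is a long gene, with 7779 exon bases. The difference of 15.5 dpc replicate 1 from the mean of the other samples of its stage had a Spearman's rho of -0.566 with exon length. The part of gene length or of acinar cells in the order of the *Pdk1* samples was not tested. *Pdk3*, another kinase of the complex, was 461, 434 and 425 and then 732, 528 and 579 (log2 0.48, SE 0.14, adjusted p = 0.0442). *Pdha1*, encoding the catalytic E1 alpha subunit, was 1627, 1623 and 1609 and then 1852, 2045 and 1991 (log2 0.28, SE 0.08, adjusted p = 0.0523). Its stages did not overlap, it passed without 15.5 dpc replicate 1 (0.0126) or 2 (0.0357), with DESeq2 (0.00768), with RLE factors (0.0422) and with the length trend removed (0.00601), and 16.0% of its exon bases overlap a gene on the opposite strand. The *Pdk3* call was lost without 13.5 dpc replicate 1, 2 or 3 or 15.5 dpc replicate 3 (adjusted p = 0.109 to 0.154), with library size alone (log2 0.25, adjusted p = 0.12), with upper quartile factors (0.0516) and without a filter (0.0502). Of 11 other genes of the complex, its regulators and the mitochondrial pyruvate carrier, 1 rose and 1 fell, with a median of 0.29, in counts near the 11.6% and 10.7% of all genes. The one that rose was *Pdk2*, a further kinase (385, 370 and 415 and then 657, 537 and 654, log2 0.66, adjusted p = 0.00843). The one that fell was *Pdp1*, the phosphatase that reactivates the complex (342, 377 and 335 and then 179, 216 and 218, log2 -0.78, adjusted p = 0.0051). The *Pdk2* call was lost without 13.5 dpc replicate 1 or 2 (adjusted p = 0.0535 to 0.0545).

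Within the TCA cycle 3 of 6 members rose and 0 fell, against 11.6% and 10.7% of all genes, with a median of 0.41. The 6 genes together were at 493 to 498 RPKM at 13.5 dpc and at 740, 594 and 682 RPKM in the 15.5 dpc samples. *Idh2*, the mitochondrial NADP-dependent isocitrate dehydrogenase, was 5875, 5902 and 5847 normalised counts at 13.5 dpc and 10046, 7617 and 9192 at 15.5 dpc (log2 0.61, SE 0.12, adjusted p = 0.012, edgeR). *Mdh2*, the mitochondrial malate dehydrogenase, was at 0.48 (SE 0.14, adjusted p = 0.0431) and *Idh3a*, a subunit of the NAD-dependent isocitrate dehydrogenase, at 0.42 (SE 0.10, adjusted p = 0.0263). The entry enzyme *Cs*, citrate synthase, was 2921, 2957 and 3093 and then 3021, 3282 and 3348 (log2 0.11, SE 0.09, adjusted p = 0.393), with overlapping stages. *Fh1*, fumarate hydratase, was at 0.39 (adjusted p = 0.0678) and *Ogdh*, of the oxoglutarate dehydrogenase complex, at 0.07 (adjusted p = 0.679). The calls of *Idh2*, *Mdh2* and *Idh3a* were lost without 13.5 dpc replicate 1, 2 or 3 or 15.5 dpc replicate 3, at adjusted p values of 0.0622 to 0.0689, 0.127 to 0.149 and 0.0897 to 0.12. With library size alone *Mdh2* (log2 0.25, adjusted p = 0.0946) and *Idh3a* (0.21, adjusted p = 0.142) did not pass, *Cs* was at -0.10 and *Ogdh* at -0.13, and with upper quartile factors *Mdh2* was at an adjusted p of 0.0506. Of 20 other genes of the cycle and its carriers that were tested, 5 rose and 0 fell, against 11.6% and 10.7% of all genes, with a median of 0.31. *Suclg1* (log2 0.93, adjusted p = 0.0253) and *Suclg2* (0.42, adjusted p = 0.0139) encode subunits of succinyl-CoA ligase, and *Slc25a1* (0.59, adjusted p = 0.0498) the mitochondrial citrate carrier. These 3 calls were lost without 13.5 dpc replicate 1, 2 or 3 or 15.5 dpc replicate 3, at adjusted p values of 0.076 to 0.107, 0.0636 to 0.0902 and 0.128 to 0.161, and with library size alone those of *Suclg2* (0.165) and *Slc25a1* (0.0919) were lost too. *Slc25a1* also missed the threshold with upper quartile factors (0.0554) and with at least 10 counts in every sample (0.0522).

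Among the anaplerotic and cytosolic enzymes *Pcx* stood out. *Pcx*, encoding pyruvate carboxylase, lies at chr19:4510472-4621752 and was 464, 459 and 430 normalised counts at 13.5 dpc and 1114, 930 and 1019 at 15.5 dpc (log2 1.18, SE 0.10, adjusted p = 0.000786, edgeR). Every later sample was at least 2 times every earlier one, and the level went from 8.34 to 18.9 RPKM. *Mdh1*, the cytosolic malate dehydrogenase, was 3143, 3232 and 2934 and then 5695, 3629 and 4592 (log2 0.58, SE 0.16, adjusted p = 0.041). Its later samples did not overlap the earlier ones but spread widely, and the call was lost without 13.5 dpc replicate 1, 2 or 3 or 15.5 dpc replicate 3 (adjusted p = 0.12 to 0.149) or with library size alone (log2 0.35, adjusted p = 0.0708). *Pck2*, the mitochondrial phosphoenolpyruvate carboxykinase, was at 0.35 (adjusted p = 0.0716), *Me1*, the cytosolic malic enzyme, with 28.3% of its windows shared, at -0.03 (adjusted p = 0.889), and *Idh1*, the cytosolic isocitrate dehydrogenase, at -0.06 (adjusted p = 0.721).

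Pentose phosphate pathway members all had positive values, and 1 of 3 passed the test, against 11.6% of all genes on the higher side. *Taldo1*, transaldolase, was 2309, 2357 and 2242 normalised counts at 13.5 dpc and 4505, 2683 and 3464 at 15.5 dpc (log2 0.62, SE 0.18, adjusted p = 0.0437, edgeR). *Tkt*, transketolase, was at 0.38 (adjusted p = 0.0726), and *G6pdx*, the glucose 6-phosphate dehydrogenase that opens the pathway, at 0.22 (adjusted p = 0.148). The stages did not overlap in any of the 3, as in 22.8% of all genes on the higher side. The *Taldo1* call was lost without 13.5 dpc replicate 1, 2 or 3 or 15.5 dpc replicate 3 (adjusted p = 0.119 to 0.147) or with library size alone (log2 0.39, adjusted p = 0.069), and 13.6% of the *G6pdx* exon bases overlap a gene on the opposite strand. Of 5 other genes of the pathway that were tested, 2 rose and 0 fell, against 11.6% and 10.7% of all genes, namely *Pgd* (log2 0.52, adjusted p = 0.0288), the second NADPH-forming dehydrogenase, and *Rpe* (0.40, adjusted p = 0.0249), an epimerase. Both calls were lost without 13.5 dpc replicate 1, 2 or 3 or 15.5 dpc replicate 3 (adjusted p = 0.098 to 0.112 and 0.0674 to 0.116) and with library size alone (0.0605 and 0.229), and that of *Rpe* without a filter (0.0518).

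Of 21 other glycolysis and glucose transport genes tested, out of 24 listed, 6 rose and 1 fell, against 11.6% and 10.7% of all genes, with a median of 0.19. *Hkdc1*, a hexokinase domain protein, rose from 444, 509 and 514 to 1255, 1081 and 1111 normalised counts (log2 1.23, SE 0.11, adjusted p = 0.000803, edgeR), in contrast to the values of *Hk1* and *Hk2* given above. *Fbp1*, the gluconeogenic fructose bisphosphatase, was weakly expressed at 34.6, 45.4 and 38.8 and then 152, 78.7 and 103 (log2 1.48, SE 0.27, adjusted p = 0.00916). *Slc2a4*, encoding the insulin-responsive transporter GLUT4, fell by 0.86 on the log2 scale (adjusted p = 0.0106). The *Fbp1* call was lost without 13.5 dpc replicate 1 (0.051), and that of *Slc2a4* without 13.5 dpc replicate 1 or 2 (0.0503 to 0.059). Over all 80 further genes tested, 23 rose and 2 fell, against 11.6% and 10.7% of all genes, with a median of 0.30 against -0.01. Of the 86 listed, 6 did not pass the filter, and *Pfkfb3* and *Pfkfb4* stand in 2 of the lists.

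Paralogue composition was compared within each sample as the share of counts per exon length among the members of a family, a measure that does not depend on library scaling. The trend with exon length was not removed from the shares, and it can move them where paralogues differ in length. *Pdk1*, for example, has 7779 exon bases and *Pdk3* 2561. In 9 of 13 shares the stages did not overlap. Among the counts of single genes, 22.8% of all genes did not overlap on the higher side and 23.6% on the lower side. The rate for shares in other gene families was not computed. The shares of *Pfkl*, *Pfkm* and *Pfkp* are parts of the same family and not independent of each other. With 3 samples against 3, the smallest p an exact two-sided permutation test can give is 0.1, and all 9 had that value (0.144 after Benjamini-Hochberg adjustment over the 13). Within the pair *Egln1* and *Egln3*, *Egln1* made up 91.0% ± 0.872 (SD, n = 3) at 13.5 dpc and 72.5% ± 2.17 at 15.5 dpc. With *Egln2*, the third prolyl hydroxylase and the most abundant at 43.5 and 48.8 RPKM, *Egln1* made up 36.5% ± 0.476 and 36.7% ± 1.25 and the stages overlapped, an alternative chosen after seeing the data. Among these 3 genes *Egln3* went from 3.61% ± 0.347 to 13.9% ± 1.34 and *Egln2* from 59.9% ± 0.278 to 49.4% ± 1.6, both without overlap of stages (exact two-sided permutation p = 0.1, the smallest possible). *Pfkm* went from 31.6% ± 0.435 to 21.2% ± 2.48 of the phosphofructokinases and *Pfkl* from 67.1% ± 0.375 to 76.6% ± 2.8. *Ldha* went from 83.9% ± 0.491 to 93.7% ± 0.505 of the lactate dehydrogenase pair. The spread among samples was far smaller than these differences. *Slc2a1* went from 91.3% ± 0.278 to 95.7% ± 0.695 of its pair with *Slc2a3*, and *Idh1* from 16.2% ± 0.432 to 10.9% ± 0.928 of its pair with *Idh2*. *Slc16a1* went from 82.5% ± 0.41 to 79.6% ± 1.17 of its pair with *Slc16a3*. *Pdk1* made up 47.5% ± 0.845 and then 54.1% ± 4.78 of its pair with *Pdk3*, with 15.5 dpc replicate 1 near the earlier samples at 48.6%. The shares of *Hk1*, *Aldoa*, *Eno1* and *Mdh1* overlapped between stages. With all listed paralogues in each family, 10 of the 13 shares did not overlap, as *Hk1* (12.3% ± 1.01 and 7.96% ± 0.805) and *Eno1* (79.0% ± 1.47 and 83.6% ± 2.72) then separated. For this count too, only the rates of single genes given above are at hand. Exon lengths are those of all annotated exons of a gene, and shares would move with another choice of transcript.

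**Figure D5:**
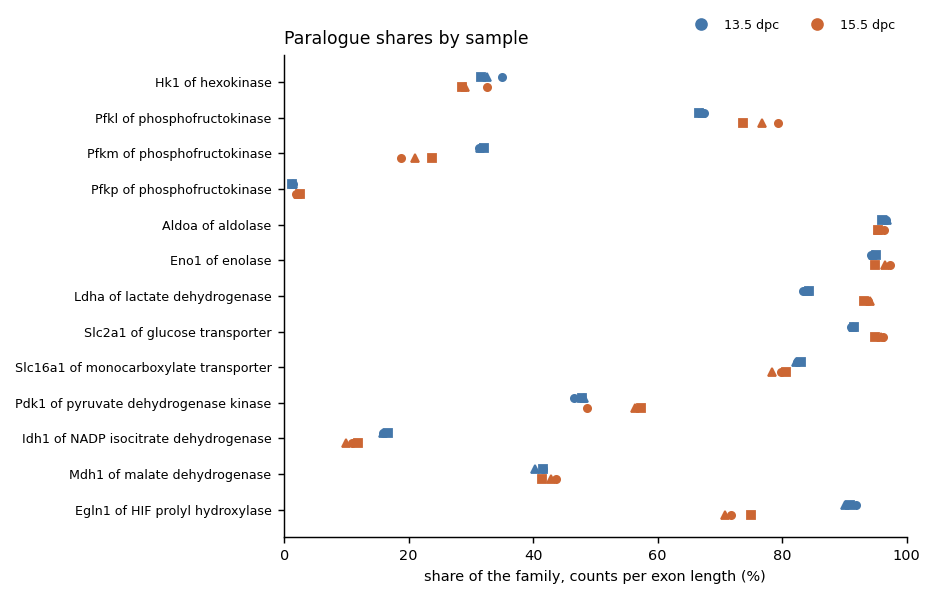
Share of 13 members in the counts per exon length of the members of their family, in percent, in every sample of 13.5 dpc (blue) and 15.5 dpc (orange), with circles, squares and triangles for replicates 1, 2 and 3. *Egln1* is at 91.0% against 72.5% on average in its pair with *Egln3*, which leaves out *Egln2*.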

How the data were processed

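RNA Seq of wt embryonic pancreata was available for 3 samples at 13.5 dpc and 3 at 15.5 dpc, grouped by the labels. The authors prepared strand-specific poly(A) libraries, converted reads with bcl2fastq 1.8.4, aligned them to mm10 with GSNAP and counted the unique alignments per Ensembl gene with featureCounts 1.4.6 (versions per the submitters' processing notes). The deposited values are these raw counts per gene. Whether counting used the strand is not given in the sources used here. Members sharing sequence with pseudogenes lose reads under unique alignment, and the share of 50-base windows found in other genes was computed from GENCODE transcripts.

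Symbols were matched by Ensembl identifier for 35449 of 37224 genes, including all 42 members. Counts were filtered with filterByExpr, normalised with TMM (factors 0.847 to 1.08) and tested with the quasi-likelihood test of edgeR 4.0.16 in R 4.3.3 over all 15578 genes kept, without covariates, with Benjamini-Hochberg adjustment and a threshold of 0.05. The standard error of a log2 fold change is its size over the square root of F. RPKM and paralogue shares used exon lengths. The steps were tested on simulated data, and figures were drawn with matplotlib 3.10.9.

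The members and lists were chosen with earlier results of these data known. The genes named by rule are the 14 called members with the largest absolute log2 fold change and *Hif1a*, *Gapdh*, *Pkm*, *Ldha*, *Ldhb*, *Slc2a1* and *Cs*, all with values per sample, and the 3 largest called changes in each list of other pathway genes. Of the other members, those given with values per sample were chosen after their values were seen. Samples of one stage all differed by more than counting noise (chi-square per gene of 1.61 to 63.2). Alternatives were other normalisations, DESeq2 1.42.0, other filters and thresholds, a block for the replicate number, removal of genes holding over 1% of the counts, a lowess trend with exon length removed from each library (span 0.5), and each sample left out in turn. Paralogue shares over all listed paralogues were added after seeing the data.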

Additional observations from a re-analysis of the deposited data

How the results depend on the processing

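For 57 named genes, 855 values were recomputed under the alternatives. Of these, 704 kept their direction and their side of the threshold, 102 kept the direction but no longer passed, 27 passed in addition and 22 changed sign. Over the fits that left out 1 sample, 7 to 31 members were called, 6 to 27 of them higher and 1 to 4 lower, while 1235 to 7619 of all genes were called, and 8 to 14 members met the study's thresholds, as did 1080 to 2370 of all genes. Those fits hold fewer samples. At an adjusted p of 0.01, 8 members and 1277 of all genes were called, and 2 members and 704 of all genes met the study's thresholds with the fold set to below 0.5 or above 2. With library size only, 11 members were higher and 5 lower, with 4083 of all genes called, and the sign changed for *Slc2a1* (-0.023), *Slc16a1* (-0.20), *Hk2* (-0.17), *Cs* (-0.10) and *Ogdh* (-0.13), for the transport median (-0.11) and for the lower glycolysis median (-0.048), against a shift of -0.22 in all genes. Other signs that changed were those of *Slc16a1* (-0.018) and *Hk2* (-0.0055) with upper quartile factors, *Slc16a1* without a filter (-0.011), *Hk1* with the length trend removed (0.065), and *Gapdh* with RLE factors (0.016), with DESeq2 (0.015) and with genes above 1% of the counts taken out (7.6e-05). Leaving out 1 sample changed the sign of *Hk2* (-0.088 to 0.16), *Gapdh* (-0.091 to 0.12), *Slc16a1* (-0.038 to 0.052), *Pkm* (-0.11 to 0.028), *Ogdh* (-0.031 to 0.17), *Me1* (-0.14 to 0.094) and *Idh1* (-0.15 to 0.0035). Counting error weighs most on weakly counted members, such as *Gapdh* (78.7 normalised counts at lowest) and *Egln3* (82.9). None of the genes that changed sign passed the test in the fit of the report. For all of these, the cause was not tested.

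The stage difference in the share of *Egln1* changed from -18.5 percentage points in its pair with *Egln3* to 0.165 with *Egln2* included, an alternative chosen after seeing the data.

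The labels give both stages the replicate numbers 1, 2 and 3 without saying that they pair the samples. Deviations from the stage means correlated at 0.22, -0.218 and 0.0378 within numbers across genes, and 3 of 6 samples correlated best with their own number, so the numbers were not read as pairs. With the replicate block, 16 members were called, 13 higher and 3 lower, and 2676 of all genes against 3467 without it. The calls of *Pdk3* (adjusted p = 0.0562), *Idh3a* (0.0549), *Mdh2* (0.0692), *Mdh1* (0.0561), *Taldo1* (0.0539), *Slc25a1* (0.0622) and *Rpe* (0.0712) were lost under it.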
